A study of Mus musculus with 35 samples.

Results

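Cholesterol is made from acetyl-CoA by a chain of enzymes, and most of the genes that encode them share 1 transcription factor, SREBP2. The genes described here are those of the chain, from the joining of acetyl units to the last reduction of the sterol ring. With them are the genes of the SREBP proteins and their processing, and a few genes of sterol traffic and turnover. A gene was taken where the array's gene symbol matched and where at least 1 of its probesets had a mean above 32 (log2 5) in at least 1 group. The list held 27 genes. Acat2 had no probeset with its symbol alone and is not analysed here. The other 26 all passed the limit on the level, with 45 of their 56 probesets, out of 8626 expressed genes and 15384 expressed probesets in all. For a gene with several expressed probesets (13 of the 26) the brightest one is shown, and a gene was called when any of its expressed probesets passed.

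The mice were male, 4 months old, and either wild-type (129S1/SvImJ) or PPARα-null (129S4/SvJae), so genotype and substrain cannot be told apart. All of them had eaten a modified AIN76A diet with olive oil for 2 weeks and were fasted for 4 h before 400 μl was given by oral gavage. The synthetic PPARα agonist WY14643 went to 4 mice of each genotype as a 0.1% suspension in 0.5% carboxymethyl cellulose. The fatty acids were given as pure triacylglycerols: EPA (trieicosapentaenoin) to 5 and 5 mice, DHA (tridocosahexaenoin) to 5 and 4, and OA (triolein) to 4 and 4. WY14643 came without fat, so in any comparison of WY14643 with a fatty acid the agonist and the fat load cannot be told apart. Untreated mice were not analysed here. The RNA was that of the full-length small intestine 6 h after the gavage, 1 mouse per array, and in such whole tissue fewer cells of a type and less RNA per cell cannot be told apart.

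SREBP2 is held in the endoplasmic reticulum by Scap and the Insig proteins while membrane sterol is plentiful. When sterol falls, Scap escorts it to the Golgi, where proteases release the part that enters the nucleus and switches on the synthesis genes. SREBP1, from Srebf1, is the relative that mainly drives fatty acid synthesis, and its gene is known to respond to the oxysterol receptor LXR, to insulin and to polyunsaturated fatty acids. The small intestine is a major site of cholesterol synthesis, and its enterocytes also take up sterol from the lumen.

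The arrays were alike in scale, with medians from 2.83 to 2.88 and 31.6 to 32.4% of probesets above 32. Of the 35 arrays 3, written below as the 3 doubted arrays, went against their genotype labels. The probeset of the PPARα target Cyp4a10 (which also matches Cyp4a31) read 8.15 to 12.75 in the other 17 wild-type arrays and 1.36 to 2.50 in the other 15 PPARα-null arrays, and EPA replicate 5 of each genotype and PPARα-null OA replicate 1 fell on the opposite side. They were kept under their labels. Several results are also given without them, a setting added after the data were seen. Another 2 arrays stand apart among these genes: wild-type WY14643 replicate 4 read high and PPARα-null DHA replicate 3 read low on most synthesis genes. Of the tissue's own markers the 5 enterocyte genes had a summed level of 51300 to 61900 on all arrays, while the stem cell genes Lgr5 and Ascl2 stayed under 32.

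The promoters of 6 genes are shown, a choice among the members called between WY14643 and OA in both genotypes. These 6 had 1 entry each in the promoter table: 5 that were lower after WY14643 than after OA and Mylip, which was higher. Other members so called, such as Mvk and Nsdhl, are not shown. Each promoter shown is the 150 bases before the RefSeq transcription start in GRCm38.p6, 5′ to 3′ on the strand of the gene. Capitals mark 4 motifs searched on both strands, which did not overlap each other here: TCACNCCAC (a sterol regulatory element), CCAAT (the CCAAT box), GGGCGG (an Sp1 site) and CACGTG (an E-box).
Hmgcs1, chr13:119690201-119690350, plus strand: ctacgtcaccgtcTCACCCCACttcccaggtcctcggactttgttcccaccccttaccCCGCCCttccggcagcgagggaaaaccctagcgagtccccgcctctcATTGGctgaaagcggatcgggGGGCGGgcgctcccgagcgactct
Idi1, chr13:8885456-8885605, plus strand: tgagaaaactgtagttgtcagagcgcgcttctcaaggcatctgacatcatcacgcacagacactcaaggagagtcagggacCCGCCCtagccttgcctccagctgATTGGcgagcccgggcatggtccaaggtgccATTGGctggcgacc
Lss, chr10:76531455-76531604, plus strand: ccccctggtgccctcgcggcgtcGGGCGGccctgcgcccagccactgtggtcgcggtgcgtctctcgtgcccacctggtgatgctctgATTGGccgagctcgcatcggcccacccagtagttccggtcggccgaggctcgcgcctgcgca
Cyp51, chr5:4104698-4104847, minus strand: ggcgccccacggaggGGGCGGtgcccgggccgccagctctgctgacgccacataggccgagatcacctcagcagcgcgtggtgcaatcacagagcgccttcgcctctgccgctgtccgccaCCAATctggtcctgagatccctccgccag
Srebf2, chr15:82147119-82147268, plus strand: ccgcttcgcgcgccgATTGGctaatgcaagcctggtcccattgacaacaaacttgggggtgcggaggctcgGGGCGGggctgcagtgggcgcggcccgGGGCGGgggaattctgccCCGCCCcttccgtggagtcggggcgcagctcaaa
Mylip, chr13:45389592-45389741, plus strand: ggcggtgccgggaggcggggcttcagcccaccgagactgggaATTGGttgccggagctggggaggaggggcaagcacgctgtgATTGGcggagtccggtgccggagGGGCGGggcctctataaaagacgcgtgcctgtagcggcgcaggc

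Of the 27 listed genes 23 had an entry in the promoter table (Fdps, Fdft1, Sqle and Stard4 had none), which covers 250 bases before to 50 after each start. A CCAAT box was found for 21 of the 23 (91.3%), against 42.9% of the 7049 expressed genes with an entry and 37.4% of all 32851 promoters. An Sp1 site was likewise found for 21 (91.3%), against 69.7% of expressed genes and 35.7% of all promoters. The sterol regulatory element was found in Hmgcs1 alone (4.35% of the 23), against 1.43% of expressed genes and 1.24% of all promoters. The E-box was found for 5 genes, Hsd17b7, Sc5d, Dhcr7, Scap and Insig1, or 21.7% against 12.4% and 7.15%. No promoter of the 23 held a direct repeat of AGGTCA with 1 base between, the form of site that PPARα binds, and 0.0396% of all promoters held one. A match describes these letters in this window only, and several genes have more than 1 entry. A member or expressed gene counts as matched when any of its entries holds the motif. The shares of all promoters count single entries, so only the shares of expressed genes are in the same unit as those of the members.

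WY14643 was compared with each fatty acid in each genotype to ask how synthesis genes read after a PPARα agonist without fat and after a fat load. The synthesis genes were lower after WY14643 than after OA in both genotypes. In wild-type mice 15 of the 26 genes were lower, against 17.7% of all genes, and 1, Mylip, was higher, against 16.2%. In PPARα-null mice 14 were lower, against 13.3% of all genes, and 2 were higher (Mylip, and Sc5d on its second probeset), against 18.3%. The median difference over the members was -0.56 and -0.51 on the log2 scale, and over all genes -0.01 and 0.04.

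**Figure D1:**
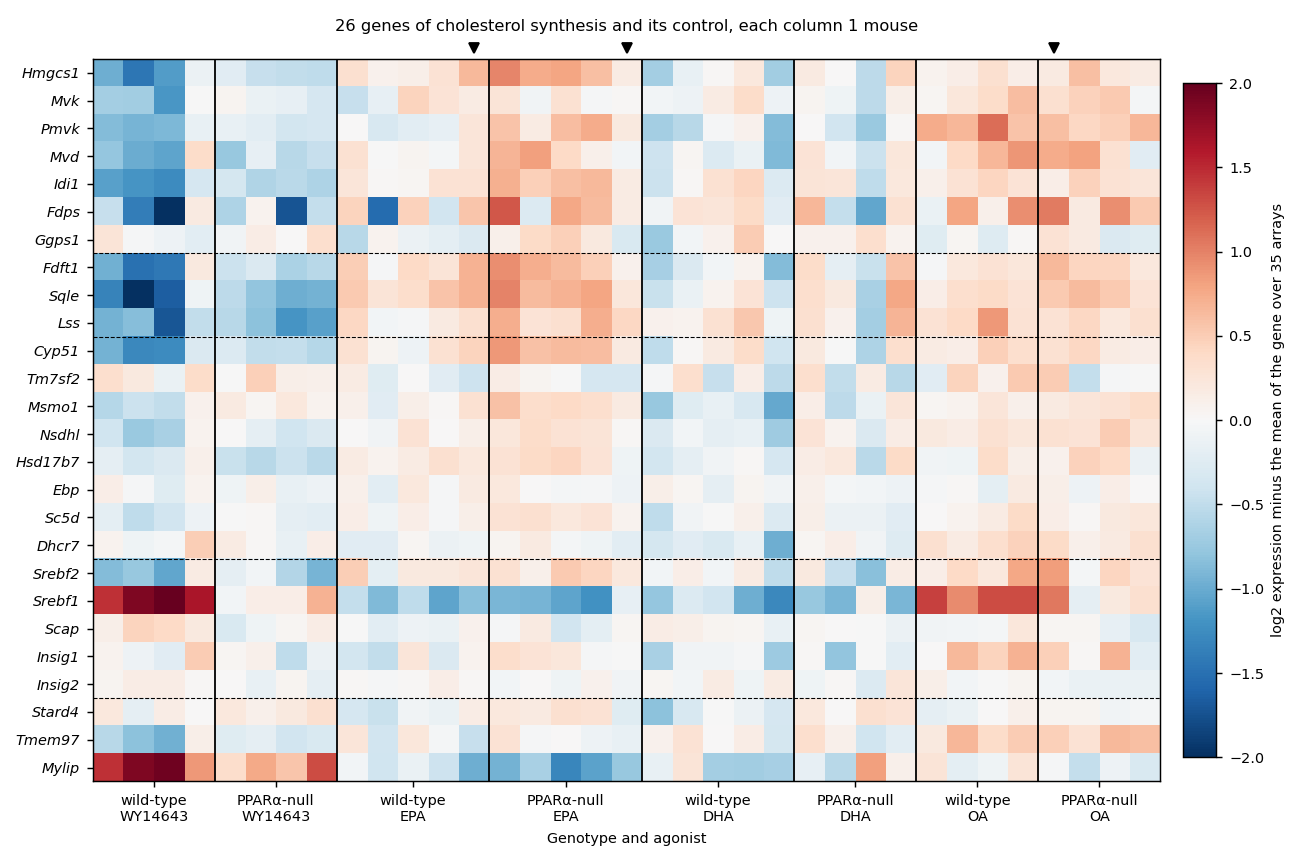
Log2 expression of each of the 26 genes minus its mean over the 35 arrays, with 1 column per mouse, grouped by agonist and genotype, and dashed lines between the groups of genes by role; triangles mark the 3 doubted arrays. The enzymes from Hmgcs1 to Cyp51 are mostly blue in the WY14643 columns of both genotypes, except wild-type WY14643 replicate 4. In those columns Srebf1 runs the other way in wild-type mice and Mylip in both genotypes.

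Among the enzymes that lead from acetyl-CoA to farnesyl units, 6 of 7 were lower after WY14643 than after OA in wild-type mice and 6 of 7 in PPARα-null mice. Hmgcs1, the cytosolic synthase that makes HMG-CoA, read 10.17, 9.69, 10.02 and 11.03 in the 4 wild-type mice given WY14643 and 11.21, 11.28, 11.46 and 11.27 in those given OA. The PPARα-null mice read 10.91, 10.68, 10.65 and 10.63 after WY14643 and 11.32, 11.74, 11.35 and 11.31 after OA. The groups did not overlap in either genotype, and wild-type replicate 4 was nearest to the OA mice. The difference was -1.08 ± 0.22 (SE of the contrast; adjusted p = 0.000529, limma), or 2.11-fold lower, in wild-type mice. In PPARα-null mice it was -0.71 ± 0.22 (adjusted p = 0.0177), or 1.64-fold lower. The PPARα-null call on this probeset was lost without OA replicate 2 (adjusted p up to 0.0637), and the other 4 Hmgcs1 probesets passed in the same direction in both genotypes. The dimmest of them read 3.56 in wild-type and 3.96 in PPARα-null mice after WY14643, under log2 5. It was kept only through its level in other groups, so its call is not separate support.

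Idi1, which isomerises the isopentenyl unit, read 9.31, 9.22, 9.15 and 10.06 after WY14643 and 10.51, 10.69, 10.83 and 10.68 after OA in wild-type mice. In PPARα-null mice its values were 10.05, 9.80, 9.86 and 9.79 against 10.53, 10.86, 10.69 and 10.64. Again no WY14643 mouse reached the lowest OA mouse. It was 2.37-fold lower in wild-type (-1.24 ± 0.18, adjusted p = 9.7e-06) and 1.75-fold lower in PPARα-null mice (-0.81 ± 0.18, adjusted p = 0.00157). Pmvk, the phosphomevalonate kinase, read 6.17, 6.11, 6.15 and 6.90 after WY14643 against 7.78, 7.70, 8.16 and 7.61 after OA in wild-type mice, 2.78-fold lower (-1.48 ± 0.20, adjusted p = 3.64e-06). In PPARα-null mice it was 1.75-fold lower (-0.81 ± 0.20).

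The remaining mevalonate genes were dimmer or more variable. Mvk, the mevalonate kinase, was 1.93-fold lower in wild-type mice (-0.95 ± 0.20). In PPARα-null mice it passed on its second probeset only, whose mean after WY14643 (4.64) lay under log2 5. Mvd, the decarboxylase, was at least 1.69-fold and at least 1.61-fold lower, since its level after WY14643 lay under 32. Fdps, which makes farnesyl diphosphate, differed by -1.36 ± 0.45 in wild-type and -1.36 ± 0.45 in PPARα-null mice (adjusted p = 0.0242 and 0.027), but these calls rest on single arrays. The call was lost without wild-type OA replicate 2 or 4 or wild-type WY14643 replicate 2 or 3, and in PPARα-null mice without OA replicate 1 or 3 or WY14643 replicate 3. Fdps and Srebf2 no longer passed in PPARα-null mice without the 3 doubted arrays, and 12 genes were then lower. Ggps1, at the branch to geranylgeranyl groups, passed in no comparison of agonists or genotypes.

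All 3 enzymes of the squalene steps were lower in both genotypes. Sqle, the squalene epoxidase, had the largest difference among the probesets shown in wild-type mice. In wild-type mice it read 7.50, 6.34, 7.19 and 8.75 after WY14643 and 8.97, 9.18, 9.23 and 9.11 after OA. The values in PPARα-null mice were 8.31, 8.05, 7.87 and 7.89 against 9.36, 9.48, 9.37 and 9.11. The spread of the wild-type WY14643 mice was wide, yet the highest still lay under every OA mouse. The differences were -1.68 ± 0.29 (3.20-fold lower, adjusted p = 8.91e-05) and -1.30 ± 0.29 (2.46-fold lower, adjusted p = 0.00164).

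Lss, the lanosterol synthase, read 6.78, 6.88, 6.01 and 7.23 after WY14643 and 8.01, 8.13, 8.59 and 8.01 after OA in wild-type mice. The PPARα-null mice read 7.17, 6.91, 6.55 and 6.64 against 8.01, 8.14, 7.93 and 8.05. No mouse given WY14643 reached a mouse given OA in either genotype. It was 2.75-fold lower in wild-type (-1.46 ± 0.22) and 2.32-fold lower in PPARα-null mice (-1.22 ± 0.22). Fdft1, the squalene synthase, was 2.14-fold and 1.88-fold lower (-1.10 ± 0.26 and -0.91 ± 0.26), although wild-type WY14643 replicate 4 at 9.67 lay within the OA mice (9.46 to 9.77).

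Of the 8 enzymes after lanosterol 4 were lower in wild-type mice (Cyp51, Msmo1, Nsdhl and Sc5d) and 3 in PPARα-null mice (Cyp51, Nsdhl and Hsd17b7). Cyp51, the lanosterol demethylase, read 8.07, 7.72, 7.76 and 8.72 after WY14643 and 9.18, 9.14, 9.49 and 9.34 after OA in wild-type mice. In PPARα-null mice it read 8.74, 8.52, 8.53 and 8.44 against 9.31, 9.42, 9.18 and 9.15, again without overlap. The differences were -1.22 ± 0.20 and -0.71 ± 0.20, and the second probeset gave -2.16 ± 0.28 and -1.40 ± 0.28. Nsdhl, a sterol dehydrogenase, was 1.56-fold and 1.46-fold lower. Hsd17b7, the ketone reductase of the chain, passed in PPARα-null mice only (-0.69 ± 0.15), against -0.26 in wild-type mice, and the interaction was not called (0.43, adjusted p = 0.563). Msmo1, the methyl oxidase, was 1.38-fold lower in wild-type mice (-0.46 ± 0.16), a call lost without OA replicate 3 or WY14643 replicate 1, 2 or 3. Sc5d, the desaturase, was 1.37-fold lower in wild-type mice on 1 probeset, and its second probeset was higher by 0.52 ± 0.15 in PPARα-null mice. Tm7sf2, Ebp and Dhcr7, late enzymes of the chain, did not pass against OA in either genotype.

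Among the regulators Srebf2, which encodes SREBP2 itself, was 2.00-fold lower in wild-type mice (-1.0 ± 0.24, adjusted p = 0.00229) and 1.75-fold lower in PPARα-null mice (-0.81 ± 0.24, adjusted p = 0.0137). It read 5.73, 5.84, 5.56 and 6.75 after WY14643 against 6.72, 6.99, 6.81 and 7.37 after OA in wild-type mice. Only replicate 4 of the former reached the latter. Insig1, the sterol sensor that retains Scap and a known SREBP target, differed by -0.39 and -0.37 without passing. Srebf1, Scap and Insig2 did not pass against OA either.

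Of the genes for sterol traffic and turnover, Tmem97, an endosomal protein that binds NPC1, was 1.98-fold and 1.71-fold lower after WY14643 than after OA (-0.99 ± 0.19 and -0.78 ± 0.19). Mylip, the ubiquitin ligase that degrades lipoprotein receptors and a known LXR target, went the other way. It read 7.08, 7.49, 7.56 and 6.48 after WY14643 and 5.87, 5.43, 5.54 and 5.88 after OA in wild-type mice. The PPARα-null mice read 5.97, 6.38, 6.18 and 6.92 against 5.60, 5.15, 5.52 and 5.32. Every WY14643 mouse lay above every OA mouse of its genotype, and the differences were 1.47 ± 0.26 (2.78-fold, adjusted p = 0.000131) and 0.97 ± 0.26 (1.95-fold, adjusted p = 0.00798). Stard4, a carrier of sterol between membranes, did not pass.

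**Figure D2:**
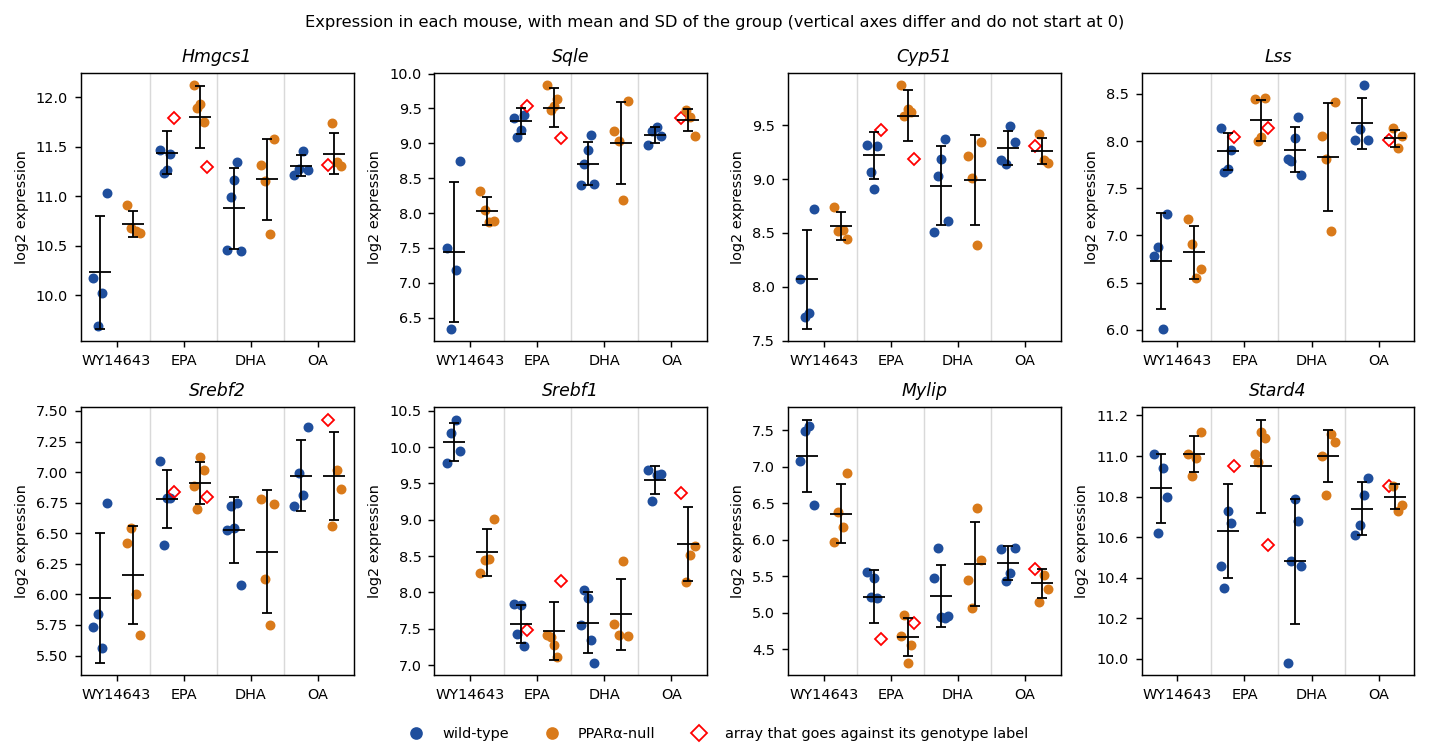
Log2 expression of 8 genes in each mouse (vertical axes, which differ between panels and do not start at 0), by agonist and genotype, with each group's mean and SD in black and the 3 doubted arrays as open red diamonds. Hmgcs1, Sqle, Cyp51 and Lss are lowest after WY14643 in both genotypes, whereas Srebf1 is highest in wild-type mice given WY14643 or OA, with group means of 10.07 and 9.55.

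Markers of other cells moved beside these differences. All 6 pancreatic acinar markers were lower after WY14643 than after OA in PPARα-null mice, with a median of -4.27, and their summed level ran from 1620 to 10100 against 42100 to 82300. In wild-type mice none of the 6 passed, and the sums were 6000 to 28300 against 11600 to 51100. The proliferation markers Mki67 and Top2a were lower in wild-type mice and Top2a in PPARα-null mice, out of 3 expressed crypt markers, with sums over the list of 3790 to 4280 against 4120 to 4400 and 4030 to 4520 against 3910 to 4510. The enterocyte sums were 59300 to 61200 against 58500 to 61900 and 59000 to 60700 against 55500 to 59000. None of the 6 acinar markers passed between WY14643 and EPA or DHA in either genotype, although their medians were 0.86 and -0.72 in wild-type and -1.95 and -2.08 in PPARα-null mice. Of 5 smooth muscle markers Acta2 was lower after WY14643 than after OA in PPARα-null mice, and Acta2 and Actg2 than after EPA in wild-type mice. Of 5 enteroendocrine markers Gcg was lower than after OA in both genotypes, and Chga and Chgb were higher in PPARα-null mice, with sums of 2600 to 3570 against 3200 to 3910 and 3640 to 4220 against 3000 to 4150. The goblet marker Tff3 and the Paneth marker Lyz1 were also higher than after OA in PPARα-null mice. Against DHA in wild-type mice Mki67 and Top2a were lower and Olfm4 higher, and Top2a was lower than after EPA in both genotypes. Spink4, a goblet marker, was lower than after EPA in both and than after DHA in wild-type mice. Lct of the enterocyte list was higher after WY14643 in all 6 comparisons. The part of these markers in the differences was not tested.

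Against EPA, too, most of the synthesis enzymes were lower after WY14643. In wild-type mice 15 genes were lower, against 23.1% of all genes, and 5 were higher, against 22.2%. Sc5d is counted in both, since its probesets differed by -0.35 and 0.55. In PPARα-null mice 13 were lower, against 17.0%, and 3 were higher (Srebf1, Mylip and Sc5d on its second probeset), against 20.9%, with Sc5d again in both. The member medians were -0.45 and -0.31, with -0.01 and 0.04 over all genes. Sqle differed most among the enzymes shown, by -1.87 ± 0.28 (3.67-fold) and -1.48 ± 0.28 (2.79-fold). Hmgcs1 differed by -1.21 ± 0.21 and -1.08 ± 0.21, and Lss by -1.17 ± 0.21 and -1.40 ± 0.21. Leaving out the 3 doubted arrays left 13 genes lower in each genotype.

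Against DHA fewer of the genes were lower. In wild-type mice 8 were lower, against 20.8% of all genes, and 5 were higher (Sc5d on its second probeset, Dhcr7, Srebf1, Stard4 and Mylip), against 19.7%. In PPARα-null mice 5 were lower (Idi1, Sqle, Lss, Hsd17b7 and, on its second probeset, Cyp51), against 9.04%, and 2 were higher, against 10.9%. The member medians were -0.15 and -0.04, with -0.01 and 0.03 over all genes. Sqle was 2.40-fold and 1.95-fold lower, and Lss 2.27-fold and 2.02-fold lower. The PPARα-null count rests on single arrays: it was 7 genes in either direction with all arrays, 9 without DHA replicate 3, 2 without DHA replicate 1, 1 (Lss) without DHA replicate 2 or 4, and 3 without WY14643 replicate 3 or 4. In wild-type mice the 13 genes in either direction became 17 without WY14643 replicate 4. Without the 3 doubted arrays 6 genes were lower in PPARα-null mice, with Hmgcs1 added.

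**Figure D3:**
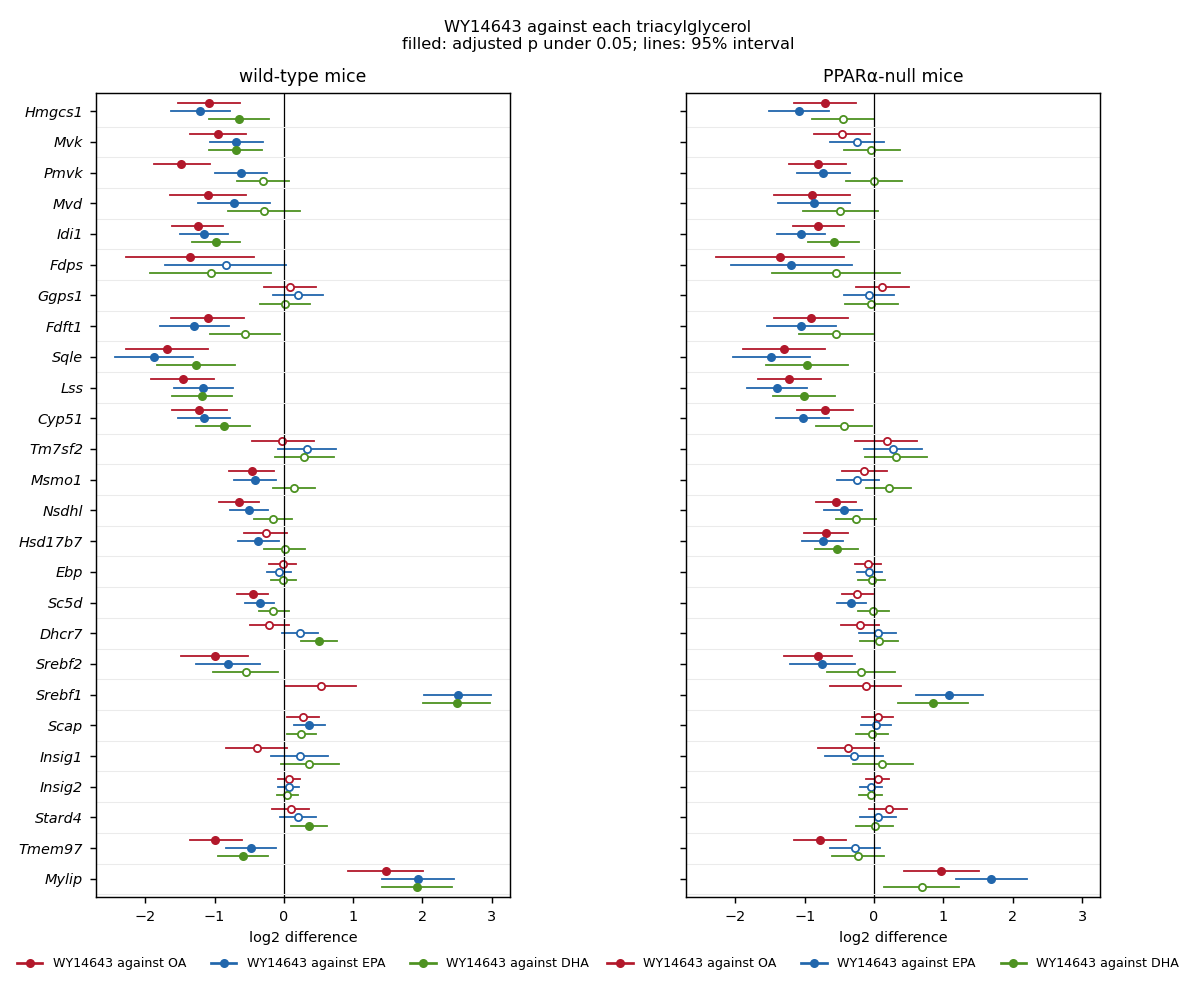
Log2 difference of WY14643 minus OA (red), EPA (blue) and DHA (green) for each of the 26 genes, in wild-type (left) and PPARα-null mice (right); points are differences of group means, lines 95% intervals, and filled points passed at an adjusted p under 0.05. Most enzymes lie left of 0 in both panels, Sqle as far as -1.87, while Srebf1 and Mylip lie to the right against EPA in both.

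Whether the genotypes differed in these responses was tested as an interaction. For WY14643 against OA none of the 26 genes passed (limma), against 1.30% of all genes, and 3 had an unadjusted p under 0.05. At an unadjusted p under 0.01 it was 0 members, against 4.45% of all genes. Hmgcs1 had an interaction of -0.36 (95% interval -1.0 to 0.27), Sqle of -0.38 (-1.22 to 0.46) and Lss of -0.24 (-0.88 to 0.39). These intervals include 0, and that of Hmgcs1 also includes a response in wild-type mice more than 0.71 stronger, the size of the whole PPARα-null response, so a like response in both genotypes was not shown. For WY14643 against EPA and against DHA 1 gene passed, Srebf1, against 1.30% and 0.580% of all genes.

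Srebf1, the gene of SREBP1, had a pattern of its own. In wild-type mice it read 9.78, 10.19, 10.38 and 9.95 after WY14643, and 9.68, 9.26, 9.62 and 9.63 after OA. After EPA it read 7.84, 7.43, 7.82, 7.26 and 7.48, the last on a doubted array, and after DHA 7.55, 8.04, 7.93, 7.34 and 7.03. All wild-type mice given EPA or DHA lay below all those given WY14643 or OA. In PPARα-null mice it read 8.27, 8.45, 8.46 and 9.01 after WY14643, and 9.37, 8.14, 8.52 and 8.64 after OA, the first of these on a doubted array. After EPA it read 7.41, 7.39, 7.27, 7.11 and 8.16, the last on a doubted array, and after DHA 7.56, 7.41, 8.43 and 7.40. There DHA replicate 3 overlapped the WY14643 mice. EPA overlapped OA through the doubted EPA replicate 5 alone (8.16 against a lowest OA value of 8.14), and the other 4 EPA mice lay below all OA mice.

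WY14643 exceeded EPA by 2.51 ± 0.24 in wild-type mice (5.69-fold, adjusted p = 5.15e-09) and by 1.08 ± 0.24 in PPARα-null mice (2.12-fold, adjusted p = 0.00112), an interaction of 1.43 ± 0.34 (adjusted p = 0.0211). It exceeded DHA by 2.50 ± 0.24 and 0.85 ± 0.25 (5.64-fold and 1.80-fold), an interaction of 1.65 ± 0.35 (adjusted p = 0.019). Without the 3 doubted arrays the interactions of Srebf1 were 1.23 (adjusted p = 0.0421) and 1.65 (adjusted p = 0.00223). The first was lost without PPARα-null EPA replicate 5 alone, without wild-type WY14643 replicate 2 or 3, or without PPARα-null WY14643 replicate 1, 2 or 3. The second was lost without wild-type WY14643 replicate 2 or 3 or PPARα-null WY14643 replicate 1. Over their alternatives the adjusted p reached 0.069 and 0.0607, and the interactions ran from 1.23 to 1.58 and from 1.41 to 1.80.

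The fatty acids were then compared with each other, where every mouse had a fat load of the same volume. In wild-type mice 4 genes were lower after EPA than after OA, against 4.36% of all genes: Srebf1, Pmvk, Dhcr7 and, on its second probeset, Lss. After DHA 8 were lower than after OA, against 3.15% of all genes: the same 4 with Msmo1, Nsdhl, Insig1 and, on another probeset, Stard4. None of the 26 was higher in either comparison. Both share the OA mice and so are not independent.

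Srebf1 differed most, by -1.98 ± 0.24 for EPA (3.95-fold lower, adjusted p = 1.16e-06) and -1.97 ± 0.24 for DHA (3.92-fold lower, adjusted p = 2.25e-06). Pmvk read 7.05, 6.72, 6.83, 6.88 and 7.29 after EPA and 6.36, 6.49, 7.02, 7.13 and 6.17 after DHA, all under the 7.61 to 8.16 of the OA mice. It was 1.81-fold lower after EPA (-0.86 ± 0.19, adjusted p = 0.0038) and 2.26-fold lower after DHA (-1.18 ± 0.19, adjusted p = 0.000145). Dhcr7, the reductase that completes cholesterol, read 7.98, 7.99, 8.26, 8.10 and 8.12 after EPA, 7.86, 7.99, 7.91, 8.07 and 7.23 after DHA and 8.53, 8.38, 8.55 and 8.67 after OA. Every mouse given EPA or DHA lay under the OA mice, by -0.44 ± 0.13 and -0.72 ± 0.13 in the means. After DHA Insig1 was 1.70-fold lower (-0.76 ± 0.20), Msmo1 1.53-fold (-0.61 ± 0.15) and Nsdhl 1.41-fold (-0.49 ± 0.13).

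Several enzymes that were lower after WY14643 were not called here, among them Sqle, Hmgcs1, Idi1 and Cyp51. In wild-type mice Sqle differed from OA by 0.20 after EPA (95% interval -0.37 to 0.76) and by -0.41 after DHA (-0.97 to 0.15). Hmgcs1 differed by 0.13 (-0.30 to 0.56) and -0.42 (-0.85 to 0), Idi1 by -0.09 and -0.26, and Cyp51 by -0.07 and -0.34. The counts depended on single arrays. That for DHA was 3 genes (Pmvk, Dhcr7 and Srebf1) without OA replicate 3, 4 without DHA replicate 5 and 5 without OA replicate 4 or DHA replicate 1. Nsdhl lost its call under 9 of 18 alternatives, among them leaving out any 1 of the OA mice or DHA replicate 1 or 5, and Msmo1 without OA replicate 3 or DHA replicate 5. The count for EPA was 2 (Pmvk and Srebf1) without OA replicate 3 or 4 or EPA replicate 1 or 4. The Dhcr7 call for EPA was lost under 10 of 18 alternatives, with an adjusted p of up to 0.116, and among them is the one without the 3 doubted arrays. In that setting Sc5d was called lower for EPA, and 9 genes were lower after DHA, with Mvd added.

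In PPARα-null mice 1 gene was lower after EPA than after OA, Srebf1 (-1.20 ± 0.24, 2.30-fold, adjusted p = 0.00353), against 1.62% of all genes. After DHA 1 was lower, Pmvk (-0.82 ± 0.20, 1.76-fold, adjusted p = 0.0377), against 0.985%. Without the 3 doubted arrays Srebf1 stayed (-1.14, adjusted p = 0.00555) and no gene passed for DHA. The Pmvk call was lost under 9 of 17 alternatives, among them leaving out any 1 of the OA mice or DHA replicate 2 or 3 (adjusted p up to 0.153), and that of Srebf1 where only the groups compared were fitted (adjusted p = 0.0932). Against OA the acinar medians were -2.34 and -0.67 in wild-type and -2.28 and -1.99 in PPARα-null mice for EPA and DHA, with none of 6 called, and Apoa4 alone of 5 enterocyte markers was lower, in wild-type mice after both. Lyz1 was higher after EPA than after OA in PPARα-null mice. Their part was not tested. The interactions of genotype with EPA against OA and with DHA against OA were called for none of the 26 genes (limma), against 0% of all genes in both. An unadjusted p under 0.05 was found for 2 and 4 members. At an unadjusted p under 0.01 it was 1 and 2 members, against 2.02% and 1.83% of all genes. For Srebf1 the interactions were -0.78 ± 0.34 and -1.0 ± 0.35 (adjusted p = 0.868 and 0.809).

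EPA and DHA, which differ by chain length and by 1 double bond, were compared at the same volume and time, and no member was called between them. None of the 26 passed (limma, adjusted over all expressed probesets within each of the 2 comparisons), against 0.719% of all genes in each. An unadjusted p under 0.05 was found for 12 in wild-type and 9 in PPARα-null mice. At an unadjusted p under 0.01 it was 6 and 7, against 6.5% and 4.44% of all genes. The median of EPA minus DHA over the members was 0.16 and 0.27, with -0.01 and 0 over all genes. Msmo1 came nearest in wild-type mice, 0.56 ± 0.14 higher after EPA (adjusted p = 0.0585), and Mylip in PPARα-null mice (-1.0 ± 0.25, adjusted p = 0.0625). For Hmgcs1 the difference was 0.55 (95% interval 0.15 to 0.96) and 0.63 (0.20 to 1.06), and for Sqle 0.61 (0.08 to 1.14) and 0.51 (-0.05 to 1.07), so the genes were not shown to respond alike. The interaction with genotype was called for none of the 26 (limma), against 0% of all genes, and 1 had an unadjusted p under 0.05. At an unadjusted p under 0.01 it was also 1, against 1.92% of all genes.

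**Figure D4:**
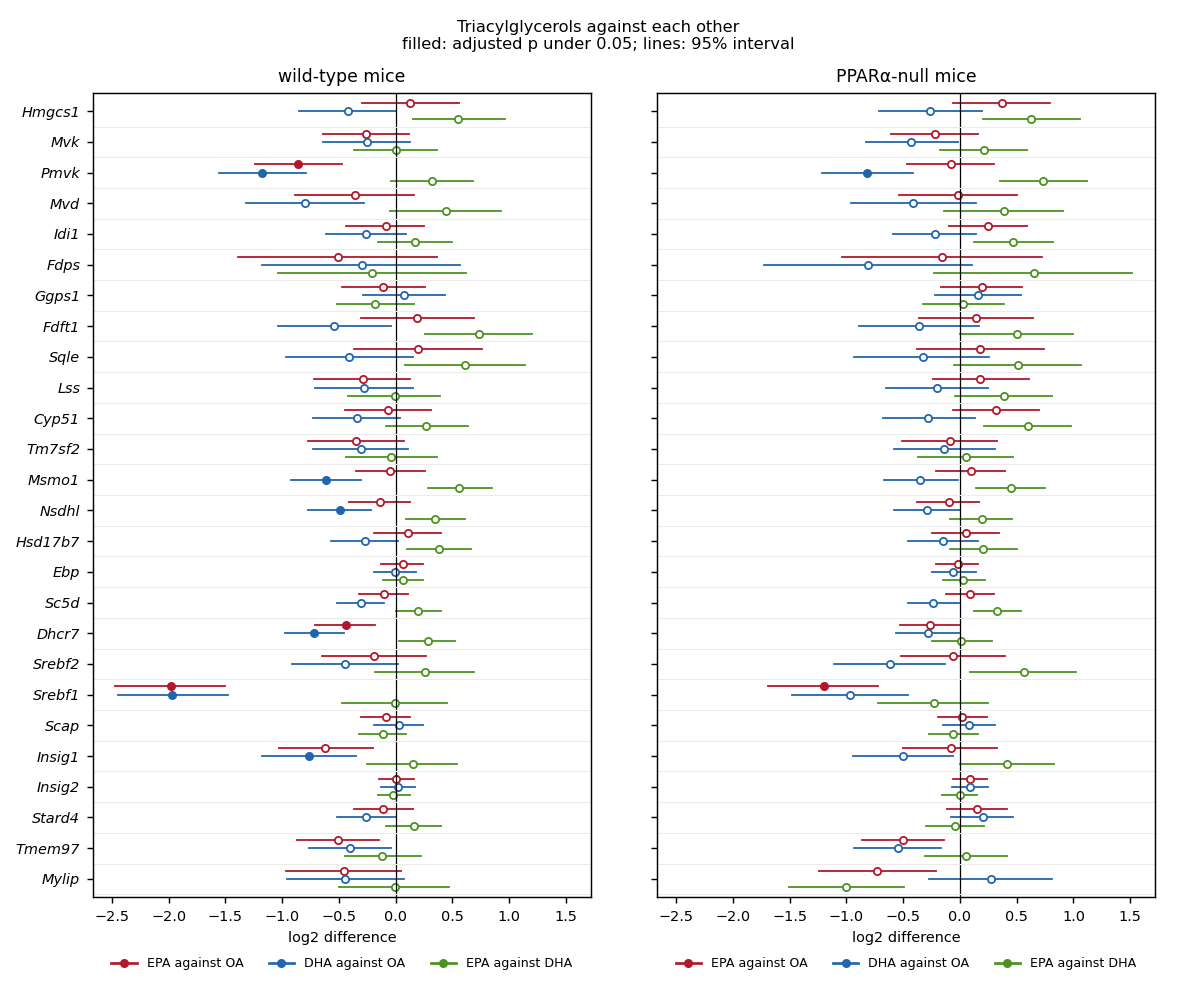
Log2 difference between triacylglycerols for each of the 26 genes, EPA minus OA (red), DHA minus OA (blue) and EPA minus DHA (green), in wild-type (left) and PPARα-null mice (right); lines are 95% intervals and filled points passed at an adjusted p under 0.05 on the probeset shown. Srebf1 lies near -2 for EPA and DHA against OA in wild-type mice (-1.98 and -1.97), and no green point is filled.

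Wild-type and PPARα-null mice were compared under each agonist, which includes any difference that the genotypes and substrains have without it. After WY14643 2 of the 26 genes passed, against 7.56% of all genes. Srebf1 was higher in wild-type mice by 1.53 ± 0.25 (2.88-fold, adjusted p = 8.04e-05), with no overlap between 9.78 to 10.38 and 8.27 to 9.01. Lss was lower by 0.71 on its second probeset, whose level in wild-type mice lay under 32. It lost that call without wild-type WY14643 replicate 1, 2 or 3 or PPARα-null WY14643 replicate 1, 2 or 3. The count depended most on wild-type WY14643 replicate 4, which read 11.03 on Hmgcs1 and 8.75 on Sqle, against 9.69 to 10.17 and 6.34 to 7.50 in the other 3. Without it 11 genes passed, against 7.76% of all genes: Srebf1 and Mylip higher, and Hmgcs1, Idi1, Mvk, Fdft1, Sqle, Lss, Cyp51, Msmo1 and Srebf2 lower in wild-type mice.

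After EPA no member passed (limma), against 0% of all genes, and 8 had an unadjusted p under 0.05. At an unadjusted p under 0.01 it was 1, Pmvk, against 3.14% of all genes. Without the 3 doubted arrays 1 passed, Stard4 (-0.49 ± 0.12, adjusted p = 0.0235), against 2.08% of all genes. After DHA 2 passed, against 8.20% of all genes. Stard4 read 9.98, 10.48, 10.79, 10.68 and 10.46 in wild-type and 11, 10.81, 11.11 and 11.07 in PPARα-null mice, without overlap, a difference of -0.52 ± 0.13 (1.43-fold, adjusted p = 0.0127). Stard4 on this probeset lost its call without PPARα-null DHA replicate 3. Lss passed on its second probeset (-0.74, adjusted p = 0.0309). After OA no member passed (limma), against 0.498% of all genes, and 1, Srebf1, had an unadjusted p under 0.05. Its unadjusted p also lay under 0.01, as did that of 5.3% of all genes. Srebf1 differed by 0.88 ± 0.25 (adjusted p = 0.115), and without the 3 doubted arrays by 1.11 ± 0.23 (adjusted p = 0.00963), against 1.77% of all genes.

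Markers of other cells differed between the genotypes too. After WY14643 Chga and Chgb of 5 enteroendocrine markers were lower in wild-type mice, with sums of 2600 to 3570 against 3640 to 4220, and the enterocyte gene Fabp2 was higher. After DHA Fabp2 was higher and Lct lower, and no acinar marker was called under any agonist. For the mean of the agonists Chga, Chgb, Ang4, Fabp4 and Lct were lower and Fabp2 higher. Their part in the differences was not tested.

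Averaged over the 4 agonists, small differences between the genotypes passed. Srebf1 (0.60 ± 0.12) and Insig2 (0.11 ± 0.04), the second Insig protein, were higher in wild-type mice, 2 genes against 11.7% of all genes. Lower were 8, against 14.1%: Msmo1 (-0.34 ± 0.08), Hmgcs1 (-0.32 ± 0.11), Stard4 (-0.26 ± 0.06) and Nsdhl (-0.20 ± 0.07) on the probeset shown, and Mvk, Fdft1, Lss and Sc5d on a second one. The calls of Srebf1, Msmo1 and Stard4 held under each of the 43 alternatives tried, whereas that of Insig2 was lost under 22, that of Hmgcs1 under 7 and that of Nsdhl under 5. Leaving out the 3 doubted arrays gave 3 higher and 9 lower, with Mylip (0.36 ± 0.13, adjusted p = 0.0463) and Idi1 (-0.25 ± 0.09, adjusted p = 0.0441) added.

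**Figure D5:**
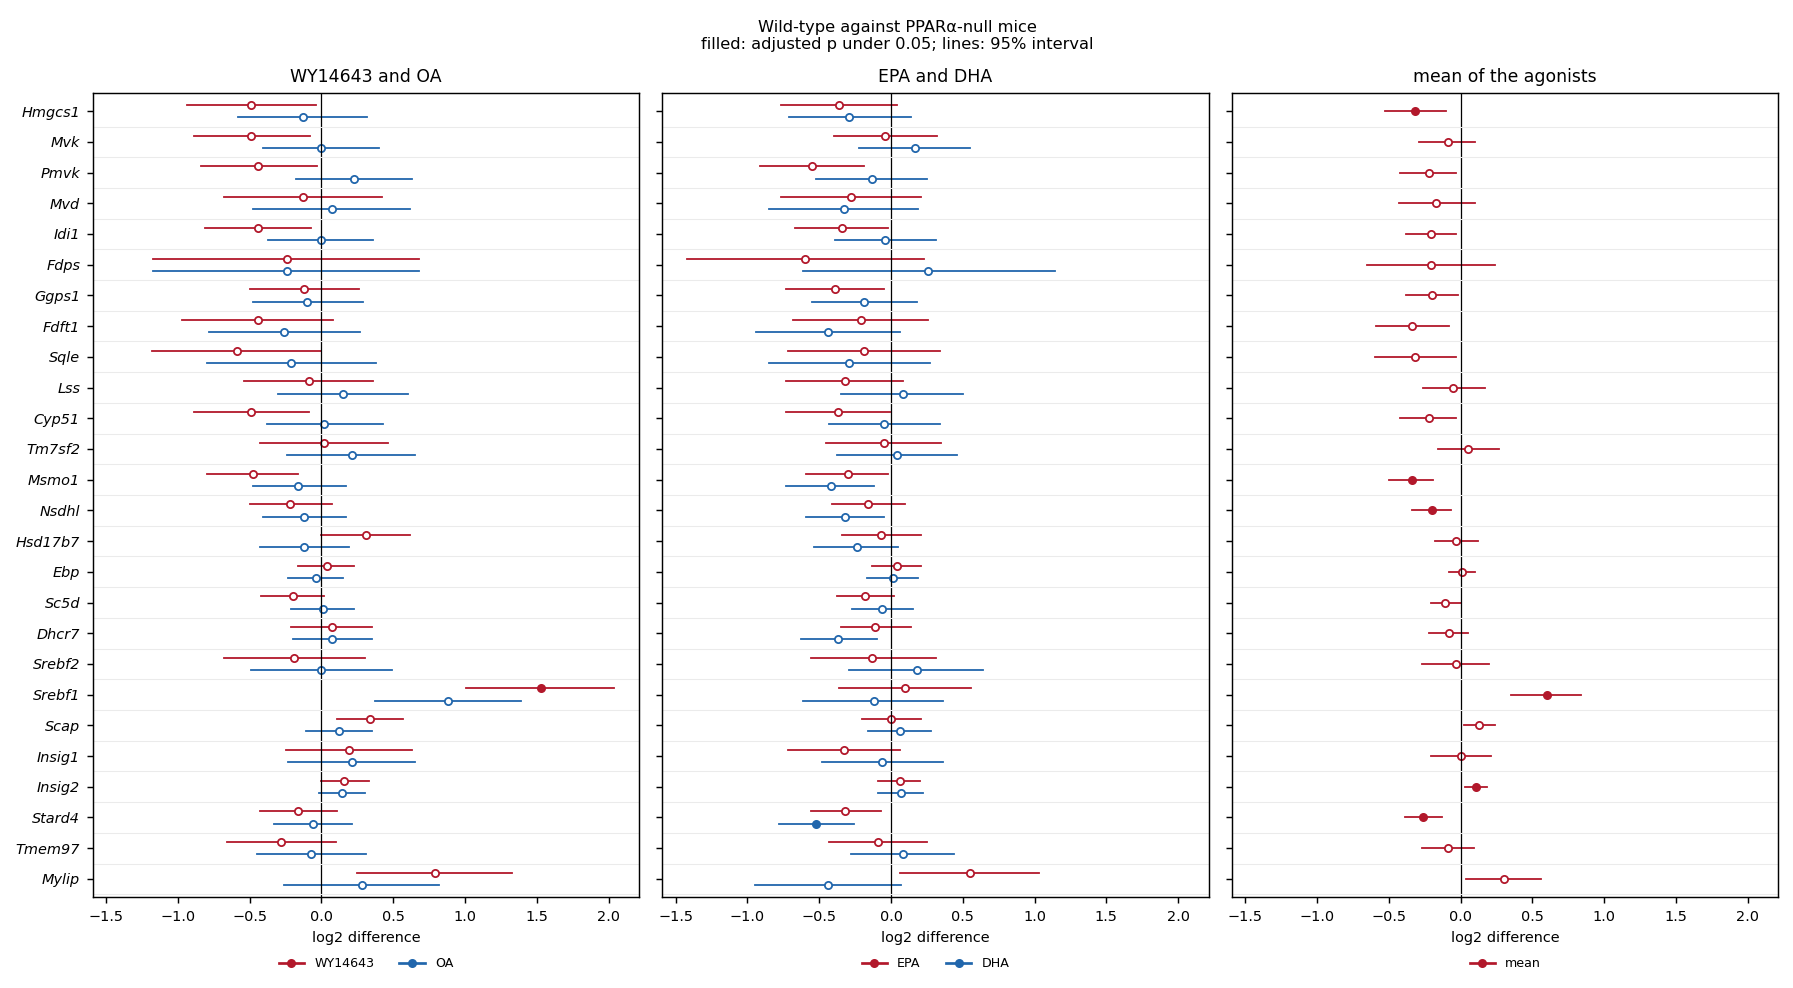
Log2 difference of wild-type minus PPARα-null mice for each of the 26 genes, after WY14643 and OA (left), after EPA and DHA (middle) and as the mean of the 4 agonists (right); lines are 95% intervals, and filled points passed at an adjusted p under 0.05 on the probeset shown. Srebf1 after WY14643, at 1.53, is the largest difference, and most enzymes lie slightly left of 0.

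Mice of 1 group differed together on these genes. Each array's deviation from its group mean was taken for every gene, and the deviations of Hmgcs1 were set beside those of the others over the 35 arrays. The correlation was 0.96 for Cyp51, 0.92 for Idi1 and Sqle, 0.91 for Fdft1, 0.80 for Pmvk and 0.79 for Hsd17b7. It exceeded 0.5 for 15 of the other 25 members and for 1.9% of all genes, with medians of 0.55 and 0.06. Cyp51 was the gene most like Hmgcs1 of all 8626. Mylip (-0.57) and Srebf1 (-0.36) ran against it, and Tm7sf2, Ebp, Ggps1, Scap and Insig2 lay between -0.10 and 0.18. The points share the array's normalization and its tissue sample, so this is a description. Without the 3 doubted arrays the values for Cyp51, Idi1, Sqle and Fdft1 were the same to 2 decimals. Wild-type WY14643 replicate 4 and PPARα-null DHA replicate 3, which stood apart on most synthesis genes, were not left out. How far the correlations rest on them was not tested.

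Other genes of sterol and fatty acid metabolism, taken from whole lists by function, were counted in the same way between WY14643 and OA. The shares of all genes are those given above, 16.2% higher and 17.7% lower in wild-type and 18.3% and 13.3% in PPARα-null mice. Of 6 expressed genes for other steps of sterol synthesis and its acetyl supply, 3 were lower in wild-type mice: Lbr (-0.46 ± 0.07), the nuclear protein with sterol reductase activity, Aacs (-0.91 ± 0.23), which activates acetoacetate, and Acly (-0.34 ± 0.12), the ATP citrate lyase. In PPARα-null mice Lbr and Aacs were lower. Cyb5r3, a reductase that serves the desaturases, was higher in both (0.39 ± 0.11 and 0.57 ± 0.11). Of 11 genes of SREBP processing outside the members 3 were higher and 1 lower in wild-type mice, and 2 and 1 in PPARα-null mice, which differs little from those shares for a list of this size. Trib1 fell by 0.91 ± 0.21 and 0.56 ± 0.21 in wild-type and PPARα-null mice. Mbtps1, a protease that cleaves SREBP, was lower after EPA than after OA in both genotypes (-0.41 ± 0.06 and -0.30 ± 0.06) and after DHA in wild-type mice (-0.26 ± 0.06).

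Of 12 expressed fatty acid synthesis genes known as SREBP1 targets, Fasn, the fatty acid synthase, was lower after WY14643 than after OA in wild-type (-1.21 ± 0.19) and PPARα-null mice (-1.04 ± 0.19), and so was Elovl6 (-0.78 ± 0.18 and -0.74 ± 0.18). The elongase Elovl5 was higher in both (0.30 ± 0.10 and 0.53 ± 0.10). In wild-type mice 1 of the 12 was higher and 3 lower, and in PPARα-null mice 1 and 4, and most of the list was not called. Srebf1 itself did not pass in that comparison. Of 10 expressed genes of sterol uptake, esterification and efflux 8 were higher and none lower after WY14643 than after OA in wild-type mice, with Abca1, the basolateral sterol exporter, at 2.60 ± 0.31 and the apical exporter subunit Abcg8 at 2.26 ± 0.38. In PPARα-null mice 5 were higher, with Abcg8 at 2.22 ± 0.38. Of 10 expressed genes of the branches that leave the mevalonate chain for dolichol and prenyl groups 3 were lower in wild-type mice, and in PPARα-null mice 1 was higher and 1 lower.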

How the data were processed

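Gene expression in full-length small intestine was measured on Affymetrix mouse whole-genome expression arrays, 1 mouse per array, 35 in all. The deposited values are log2 expression estimates that the authors made with GCRMA, which corrects the background, normalizes between arrays and summarizes the probes of a probeset; its version is not given in the sources used here. The number of arrays limits the precision. Of 45037 probesets without controls 34945 match 1 gene symbol, 932 several and 9160 none, and genes were named only from the first. Probesets with a mean above log2 5 in at least 1 of the 8 groups were kept, 15384 in all.

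One limma fit (version 3.58.1, R 4.3.3) with 8 group means over all 35 arrays and an intensity trend gave each contrast, with Benjamini-Hochberg adjustment over the 15384 probesets within the contrast. The adjusted p of at least 1 expressed probeset had to lie under 0.05 for a gene to be called. The methods' threshold, an unadjusted p under 0.01, was an alternative. All genes were not counted at an unadjusted p under 0.05, so member counts at that threshold have no share beside them. Errors after ± are standard errors of the contrast, and intervals are 95%. A fold with a group mean under 32 is given as "at least". The fit was tested on simulated data.

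All members are named, with values per mouse for up to 12 called members by smallest adjusted p, and up to 4 called genes per other list and contrast. The members and lists were chosen with earlier results of these data known. Alternatives were no filter, no trend, fitting only the groups compared, quantile normalization, median centring, adding 32 before the log, 1 probeset per gene, the replicate block and omission of each array. Same-numbered mice deviated together in each pair for EPA against DHA in PPARα-null mice (4 pairs, lowest r 0.12). Between the genotypes after WY14643 they also did so (4 pairs, r from 0.09 to 0.55). In both the pairing rests on the data alone, and in the former the block left 0 members called.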

Additional observations from a re-analysis of the deposited data

Results flagged for a closer look

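In 12 of 208 sets of 1 gene in 1 group, 1 mouse stood apart from the rest by Dixon's criterion, which chance meets in about 1 set in 20. Srebf1 did so in 3 groups. It read 8.16 in PPARα-null EPA replicate 5, a doubted array, against 7.11 to 7.41 in the others. It read 8.43 in PPARα-null DHA replicate 3 against 7.40 to 7.56, and 9.26 in wild-type OA replicate 2 against 9.62 to 9.68. The other doubted-array values were Stard4 at 10.56 in PPARα-null EPA replicate 5 (others 10.97 to 11.12) and Insig2 at 9.28 in PPARα-null OA replicate 1 (others 9.21).

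PPARα-null DHA replicate 3 also stood apart on Idi1 (9.89 against 10.62 to 10.66) and Ggps1 (7.0 against 6.74 to 6.76). Wild-type WY14643 replicate 4 stood apart on Pmvk (6.90 against 6.11 to 6.17), and wild-type DHA replicate 5 on Dhcr7 (7.23 against 7.86 to 8.07). The rest were Hmgcs1 at 11.74 in PPARα-null OA replicate 2 (others 11.31 to 11.35), Nsdhl at 9.07 in PPARα-null OA replicate 3 (others 8.83 to 8.87) and Scap at 7.96 in wild-type OA replicate 4 (others 7.65 to 7.69).

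The response of Srebf1 differed between genotypes by the test of the interaction in limma, by 1.43 for WY14643 against EPA (adjusted p = 0.0211) and by 1.65 for WY14643 against DHA (adjusted p = 0.019). Both share the WY14643 mice.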

How the results depend on the processing

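The alternatives followed 100 called differences on the probesets shown, and none of these changed direction. Of the 100, 85 kept their call with no filter on the level, 96 with the replicate block, 93 without the 3 doubted arrays and 78 of 94 with only the groups compared. All 100 did with quantile normalization, median centring, no trend or 1 probeset per gene. Leaving out 1 array at a time kept 899 of 1036 calls.

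Member counts that moved by over 1.5 times, or from or to 0, are grouped here by setting. With no filter the genotype counts were 1 after WY14643, 1 after DHA and 6 for the mean of agonists, and those against OA were 2 (EPA) and 5 (DHA) in wild-type and 0 (DHA) in PPARα-null mice, where WY14643 against DHA gave 4. With only the groups compared, the DHA genotype count was 0, DHA against OA 5 in wild-type and 0 in PPARα-null mice, EPA against OA 0 in PPARα-null mice and WY14643 against DHA 0 in PPARα-null mice. Quantile normalization gave 1 for EPA against DHA in wild-type mice and 2 for DHA against OA in PPARα-null mice. Median centring gave 1 for genotype after WY14643 and 2 for DHA against OA in PPARα-null mice, and adding 32 before the log gave 2 for the latter. With 1 probeset per gene the genotype counts were 1 after WY14643 and 1 after DHA, EPA against DHA gave 1 in each genotype and DHA against OA 2 in PPARα-null mice. At an unadjusted p under 0.01 the genotype counts were 7 after WY14643, 1 after EPA, 4 after DHA and 1 after OA. The shares of all genes were 11.9, 3.14, 13.3 and 5.3%. At that threshold EPA against OA gave 7 in wild-type and 3 in PPARα-null mice, against 12.1% and 8.47% of all genes. DHA against OA gave 3 in PPARα-null mice, against 6.4%, and EPA against DHA 6 and 7, against 6.5% and 4.44%. The interactions gave 1 (EPA against OA), 2 (DHA against OA), 1 (EPA against DHA) and 3 (WY14643 against DHA). Their shares of all genes were 2.02, 1.83, 1.92 and 3.47%. With the replicate block the DHA genotype count was 1, and EPA and DHA against OA gave 2 and 5 in wild-type mice. Outside EPA against DHA in PPARα-null mice and the genotypes after WY14643, each pairwise comparison had a same-numbered pair with negative r (down to -0.58). Other pairs there had r of up to 0.52, so a pairing by number was neither shown nor excluded. Without the 3 doubted arrays the genotype counts were 1 after EPA and 1 after OA, and DHA against OA gave 0 in PPARα-null mice. The cause was not tested.

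Leaving out 1 array, genotype counts ran from 1 to 11 after WY14643, 0 to 0 after EPA, 1 to 3 after DHA, 0 to 1 after OA and 7 to 15 for the mean. In wild-type mice they ran from 2 to 4 (EPA against OA), 3 to 9 (DHA against OA), 0 to 1 (EPA against DHA), 14 to 16, 14 to 19 and 10 to 17 (WY14643 against OA, EPA and DHA). In PPARα-null mice they ran from 1 to 1, 0 to 1, 0 to 2, 14 to 16, 13 to 15 and 1 to 9 in the same order. Both Srebf1 interactions ran from 0 to 1 gene, and the others stayed at 0.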
